A study of Mus musculus with 8 samples.

Results

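Histone genes were followed through 3 populations of lymphoid progenitors from mouse fetal liver. Members were taken by name, as rows of the deposited gene table whose symbol starts with Hist1h, Hist2h, Hist3h, Hist4h, H2af or H3f3. This gave 88 of 34745 genes, of which 71 with a Hist symbol were treated as replication-dependent and 17 with an H2af or H3f3 symbol as variant. Members were chosen by symbol alone, but the group was proposed after the values of these same libraries in the 3 comparisons were known. Counts over its members are therefore descriptions, and no test was made on the group as a whole.

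Bulk RNA was sequenced from sorted cells called CLP (3 libraries), ILCP (3 libraries) and ILC1/3P (2 libraries) in the labels. All cells were live, lineage-negative, CD45+, CD127+ and CD25-. CLP were Flt3+. ILCP were Flt3-, α4β7+, PD-1+ and CD94-, and ILC1/3P were Flt3-, α4β7+, PD-1- and CD94+. The mice carried the genotype B6 WT and had no treatment. The labels also give an age of 6 to 8 weeks, which is not explained for a fetal tissue. The labels do not state whether libraries of a group stem from different animals, so the p-values reflect the spread between these samples alone, and that spread may be technical.

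Histones package DNA into nucleosomes, each built around an octamer of H2A, H2B, H3 and H4, with H1 binding the linker DNA between them. Replication-dependent histone genes lie in clusters, lack introns and are transcribed mainly in S phase, when new chromatin is assembled, and their mRNAs end in a conserved stem-loop in place of a poly(A) tail. Variant genes such as H3f3a and H3f3b (H3.3), H2afz and H2afv (H2A.Z) and H2afy (macroH2A1) mostly yield polyadenylated mRNAs and supply histones outside S phase. The cDNA kit named in the labels primes at poly(A), so the counts cover only the part of the replication-dependent mRNA that this priming reaches. How large that part was, and whether it was alike in the 3 populations, was not tested.

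The stem-loop is shown because it is the feature that separates the classes at the RNA level. It was read from GENCODE M21 transcripts of mm10, with the 16-base hairpin in capitals and 5 bases of transcript on either side. The members shown are the most abundant H2A gene, an H2B and an H4 gene that were higher in ILC1/3P, an H2A and an H1 gene with another pattern, and the single variant member in which the hairpin was found.
Hist1h2ao: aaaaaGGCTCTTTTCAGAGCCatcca
Hist1h2bj: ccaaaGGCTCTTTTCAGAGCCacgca
Hist1h4d: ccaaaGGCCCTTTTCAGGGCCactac
Hist3h2a: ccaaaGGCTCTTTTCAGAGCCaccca
Hist1h1c: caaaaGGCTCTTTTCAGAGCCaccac
H2afx: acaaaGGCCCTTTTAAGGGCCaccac

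Total counts ran from 4991939 to 8082476 per library. Values below are CPM, counts relative to the library size after scaling by TMM, unless FPKM are named. FPKM are the authors' values, divided by gene length, and no TMM factor was applied to them here. Results on FPKM and with library size alone both lack that factor, so they are not separate checks of a call. The scaling factors were 1.049 to 1.23 in CLP and ILCP but 0.671 to 0.753 in ILC1/3P, so differences that involve ILC1/3P depend on the scaling. With TMM the median log2 fold change of all tested genes was 0.01 when ILCP was set against CLP, and -0.25 and -0.23 when ILC1/3P was set against CLP or ILCP, and without it these were -0.03, -0.93 and -0.86. All 8 genes of the sort were tested with edgeR, at an adjusted p under 0.05. In ILC1/3P 4 passed as higher and 3 as lower against CLP, and 1 and 3 against ILCP. For ILCP against CLP these counts were 3 and 1. Among the genes of the sort, Flt3, Pdcd1 and Klrd1 followed the labels. Apart from these and Il2ra, levels of single sort genes are not given here. Flt3 was at 401 to 570 CPM in CLP and at most 1.28 elsewhere. Pdcd1 was at 44.6 to 107 CPM in ILCP and at most 17.5 elsewhere. Klrd1 (CD94) was at 1184 and 1629 CPM in ILC1/3P and at most 71.5 elsewhere. Il2ra (CD25) had no counts in CLP but had some in ILCP and in ILC1/3P, although all cells were sorted as CD25-.

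Of the 71 replication-dependent genes 56 had enough counts to be tested, 14 had counts but were not tested, and Hist2h3c1 had none. Of the 17 variant genes 11 were tested, H3f3aos (an antisense gene) had at most 11 counts in a library, and 5 had none. The tested replication-dependent genes comprised 5 H1, 17 H2A, 16 H2B, 9 H3 and 9 H4 genes. A gene passes the filter through its higher group, so counts over tested members are not counts over all of them.

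Replication-dependent histone RNA was higher in ILC1/3P than in both other populations, while the summed CPM of the variant genes overlapped between the 3 populations. Summed over its 71 genes, the replication-dependent class reached 1150, 1413 and 1134 CPM in the CLP libraries, 988, 1271 and 1379 CPM in the ILCP libraries, and 4747 and 6138 CPM in the ILC1/3P libraries. Both ILC1/3P libraries lay above all 6 others, and the CLP and ILCP libraries overlapped. The means were 1232 ± 157 CPM for CLP (SD, n = 3), 1213 ± 202 CPM for ILCP (SD, n = 3) and 5442 ± 983 CPM for ILC1/3P (SD, n = 2), so ILC1/3P stood 4.42-fold above CLP and 4.49-fold above ILCP. In bulk RNA, more cells that make these mRNAs and more of them per cell cannot be told apart.

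The variant class summed to 5815 to 6651 CPM in CLP, 5087 to 6559 CPM in ILCP and 6270 and 6701 CPM in ILC1/3P. The 3 ranges overlapped, with means of 6156 ± 438, 6005 ± 801 and 6485 ± 305 CPM. The direction of the variant sum in ILC1/3P depended on the scaling, at 0.08 (log2) against CLP with TMM and -0.60 with library size alone, where the replication-dependent sum was still higher by 1.46. On the deposited FPKM the variant sums did not overlap, at 2949 to 3704 FPKM in CLP, 2173 to 2435 FPKM in ILCP and 1913 and 1915 FPKM in ILC1/3P. Short rows that share sequence with H3f3a weigh heavily on that scale, H3f3c alone with 1081 to 1792 FPKM in CLP. Without H3f3c, H3f3aos and the pseudogenes, left out after the values were seen, the variant sums were 1348 to 1468 FPKM in CLP and 1371 to 1685 FPKM in ILCP, which overlapped. In ILC1/3P they were 1268 and 1249 FPKM, below both, on a scale without the TMM factor. In CPM with TMM the same genes summed to 5212 to 5791 in CLP, 4788 to 6240 in ILCP, and 5917 and 6292 in ILC1/3P, above CLP. Set against the median of all tested genes with TMM, the replication-dependent sum in ILC1/3P was higher by 2.39 (log2) against CLP and 2.40 against ILCP, and the variant sum by 0.33 and 0.34. A scaling factor moves a sum and that median alike, so these differences hardly depend on it by construction.

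**Figure D1:**
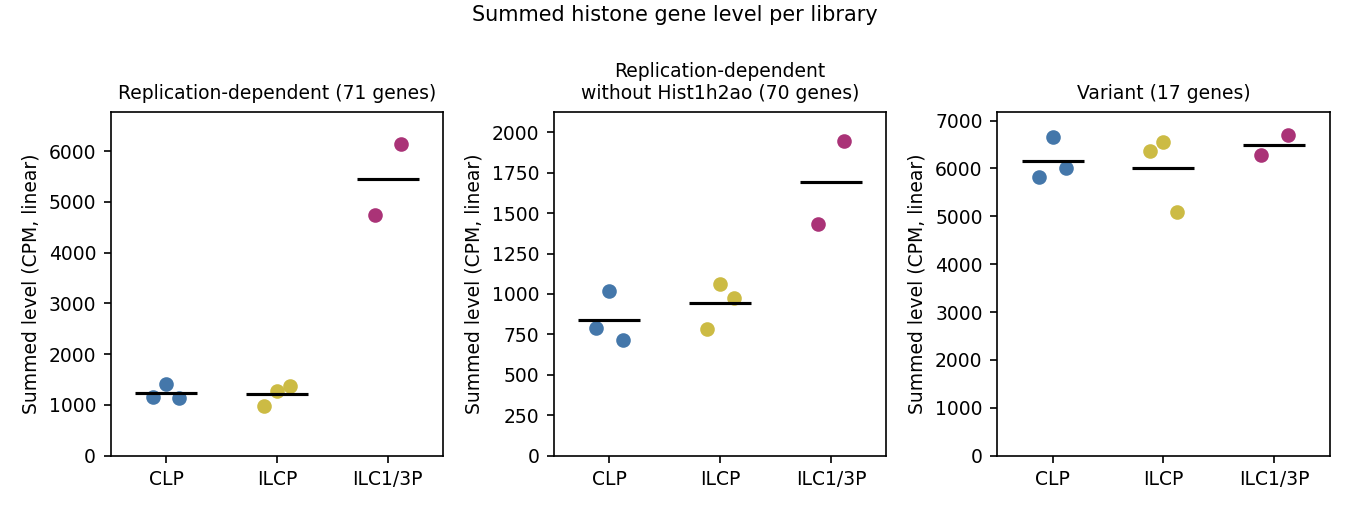
Summed CPM of the replication-dependent genes, of the same genes without Hist1h2ao, and of the variant genes, on linear axes that start at 0. Each point is 1 library and each bar a group mean: replication-dependent sums were 4747 and 6138 CPM in ILC1/3P and at most 1413 CPM elsewhere, and the variant sums overlapped.

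Within a library the ratio of both classes does not depend on the scaling between libraries. On the authors' FPKM, which allow for gene length, replication-dependent genes summed to 0.716, 0.616 and 0.568 of the variant sum in CLP, 0.668, 0.769 and 1.0496 in ILCP, and 3.73 and 4.26 in ILC1/3P. Without H3f3c, H3f3aos and the pseudogenes in the variant sum these ratios were 1.44 to 1.59 in CLP, 0.937 to 1.66 in ILCP, and 5.63 and 6.53 in ILC1/3P. As a ratio of reads it was 0.189 to 0.212 in CLP, 0.155 to 0.271 in ILCP, and 0.757 and 0.916 in ILC1/3P. Both ILC1/3P libraries were above all others on each of these measures, and the CLP and ILCP ranges overlapped. All 88 genes took 0.714% to 0.878% of the counts of a library, and ILC1/3P lay inside this range with 0.829% and 0.861%.

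One gene carried much of the sum. Hist1h2ao, an H2A gene of the large histone cluster (ENSMUSG00000094248, chr13:21810465-21810944, + strand, mm10), took 27.96% to 36.9% of replication-dependent counts in CLP, 16.3% to 29.2% in ILCP, and 69.8% and 68.3% in ILC1/3P. With TMM the class sum without it was still higher in ILC1/3P, but by less. It was at 1690 CPM against 841 CPM in CLP (2.01-fold) and 941 CPM in ILCP (1.80-fold). Library size alone lowered the log2 ratio of the whole class against CLP from 2.14 to 1.46. The sum without Hist1h2ao is not given on that scale, where its excess would be smaller. As a ratio of reads to the variant genes it was 0.119 to 0.153 in CLP, 0.123 to 0.192 in ILCP, and 0.229 and 0.290 in ILC1/3P. Of the 50-base sequences of Hist1h2ao 93.5% also occur in its neighbour Hist1h2ap, so reads of these genes cannot be assigned with certainty.

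Gene by gene, 16 of the 56 tested replication-dependent genes were called higher and 2 lower in ILC1/3P than in CLP, where calls are genes with an adjusted p under 0.05 in edgeR's quasi-likelihood test over all 13436 tested genes. Among all tested genes 11.8% were called higher and 11.7% lower in this comparison. Against ILCP 15 of 56 were higher and 2 lower, beside 8.06% and 8.25% of all tested genes. The median log2 fold change of the 56 genes was 2.27 against CLP and 2.53 against ILCP. In 42 of the 56 genes both ILC1/3P libraries lay above every CLP library, which held for 23.3% of all tested genes, and in 40 both lay above every ILCP library (20.2% of all). Both lay below every CLP library in 3 genes and below every ILCP library in 5, which held for 29.1% and 24.7% of all.

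These calls depended on single libraries and on the scaling. Without ILC1/3P replicate 2 the higher calls fell to 7 against CLP and 6 against ILCP. Without CLP replicate 1 they were 10 against CLP, and without ILCP replicate 1 they were 9 against ILCP. With library size alone 12 genes were higher and 4 lower than in CLP, and 9 higher and 5 lower than in ILCP.

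Few genes of this class differed between ILCP and CLP. Only Hist3h2ba was called higher in ILCP and no replication-dependent gene lower with edgeR, beside 3.91% and 2.87% of all tested genes, and 2 of the 56 had an unadjusted p under 0.05. DESeq2 also called none lower, and limma on FPKM called 1. The median log2 fold change was -0.14, and 26 of 56 values were positive. All ILCP libraries lay above all CLP libraries in 3 of the 56 genes and below them in 5, beside 14.1% and 14% of all tested genes.

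**Figure D2:**
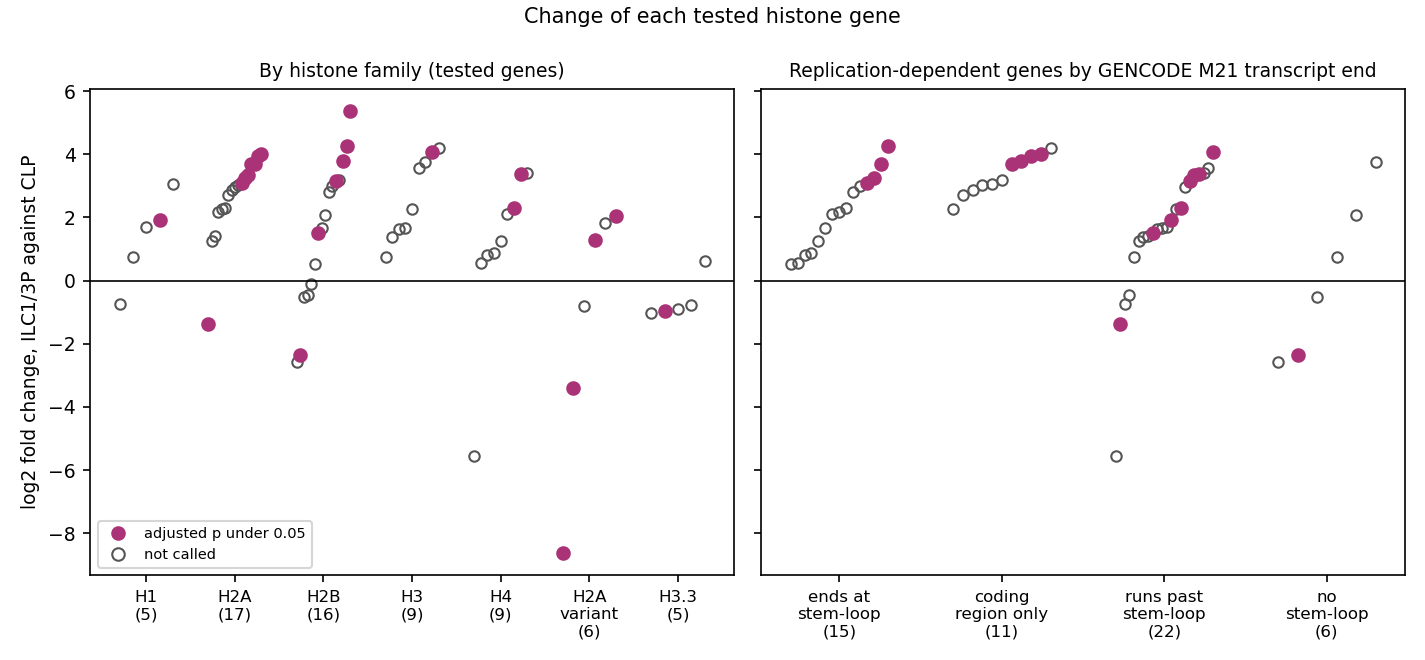
Log2 fold change of each tested histone gene in ILC1/3P against CLP, by family and, for replication-dependent genes, by the end of the annotated transcript; filled points have an adjusted p under 0.05 (edgeR). Of the H2A genes 16 of 17 and of the H3 genes 9 of 9 lie above 0, whereas H2B and the variants fall on both sides; the points below -5 are H2afy2 and Hist1h4j, which had no counts in ILC1/3P, so their fitted size is not a measured fold.

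Among the core families, H2A had the most genes called higher in ILC1/3P. Of 17 tested H2A genes 7 were called higher than in CLP and 1 lower (median log2 fold change 2.97), and 7 and 1 against ILCP (3.29). H2A genes made up 42.5% to 52.6% of replication-dependent counts in CLP, 33.6% to 43.8% in ILCP, and 81.3% and 80.0% in ILC1/3P.

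Hist1h2ao was at 360, 395 and 418 CPM in CLP, at 204, 208 and 402 CPM in ILCP, and at 3313 and 4191 CPM in ILC1/3P. No ILC1/3P library overlapped another population, and 2 of the 3 ILCP libraries were below CLP. The log2 fold change was 3.26 ± 0.32 (SE) against CLP (edgeR adjusted p = 4.64e-05) and 3.79 ± 0.32 against ILCP (adjusted p = 9.75e-05), and it was -0.53 ± 0.28 for ILCP against CLP (adjusted p = 0.337). Its neighbour Hist1h2ap had 19.95 to 30.0 CPM in CLP, 12.1 to 23.2 CPM in ILCP, and 196 and 224 CPM in ILC1/3P. It was 3.10 ± 0.37 higher on the log2 scale than in CLP (adjusted p = 0.000166). The annotated antisense gene Gm19658 overlaps the exon of Hist1h2ao, and the sources used here do not give the use of strand in the counting.

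Hist1h2ae (ENSMUSG00000069272, chr13:23570662-23571121, - strand) was at 20.4, 24.5 and 14.7 CPM in CLP, at 9.24, 11.1 and 41.4 CPM in ILCP, and at 162 and 240 CPM in ILC1/3P. ILC1/3P was again apart from all other libraries, with 1 ILCP library above CLP. The log2 fold change was 3.34 ± 0.58 against CLP (adjusted p = 0.00171). Hist1h2ag, Hist1h2ai and Hist1h2ak, 3 further H2A genes of the same cluster, averaged 1.62 to 1.88 CPM in CLP and 24.5 to 28.9 CPM in ILC1/3P, with log2 fold changes of 3.69, 3.94 and 4.01 against CLP (adjusted p = 0.00944, 0.00623 and 0.00592). The calls of Hist1h2ai and Hist1h2ak against CLP were lost without ILC1/3P replicate 2 (adjusted p = 0.0687 and 0.0535). Against ILCP, Hist1h2ag lost its call without any of 4 libraries (highest adjusted p = 0.129) and Hist1h2ai without any of 6 (0.283).

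Hist3h2a, an H2A gene outside the large cluster (ENSMUSG00000078851, chr11:58954685-58956830, + strand), went the other way. It was at 105, 125 and 110 CPM in CLP, at 111, 143 and 111 CPM in ILCP, and at 52.3 and 35.7 CPM in ILC1/3P. Both ILC1/3P libraries were below the other 6. The fall was 1.36 ± 0.30 on the log2 scale against CLP (adjusted p = 0.00704), which without ILC1/3P replicate 2 fell short of the threshold (0.0553). Of its 50-base sequences 31.5% are shared with Trim17, whose annotated exons overlap it on the same strand.

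H2B genes were split. Of 16 tested, 5 were called higher in ILC1/3P than in CLP and 1 lower, with a median of 1.87, and 11 of 16 values were positive. Hist1h2bm (ENSMUSG00000096807, chr13:21722098-21722478) was at 1.59, 2.39 and 1.48 CPM in CLP, at 3.13, 7.19 and 2.96 CPM in ILCP, and at 71.4 and 79.2 CPM in ILC1/3P. The increase was 5.37 ± 0.62 against CLP (log2, adjusted p = 0.000132) and 4.08 ± 0.58 against ILCP (adjusted p = 0.00123). Hist1h2bj (ENSMUSG00000069300, chr13:22043214-22043676, + strand) was at 3.06, 6.99 and 4.45 CPM in CLP, at 3.70, 7.19 and 12.2 CPM in ILCP, and at 92.4 and 90.5 CPM in ILC1/3P, which was higher by 4.25 ± 0.59 than in CLP (adjusted p = 0.000397). For both genes ILC1/3P did not overlap the other populations.

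The most abundant H2B gene, Hist1h2bc, did not pass the test with TMM. It was at 269, 406 and 277 CPM in CLP, at 289, 469 and 320 CPM in ILCP, and at 230 and 212 CPM in ILC1/3P, with a log2 fold change of -0.52 ± 0.29 against CLP (edgeR adjusted p = 0.218). The ILC1/3P libraries were the lowest 2 of the 8. It was called lower with library size alone (-1.18, adjusted p = 0.0086) and with limma on FPKM (-1.17, 0.00474). Hist2h2be, on another chromosome (ENSMUSG00000068854, chr3:96221119-96223738, + strand), was at 21.1, 49.5 and 31.1 CPM in CLP, at 31.1, 21.8 and 27.3 CPM in ILCP, and at 5.76 and 7.56 CPM in ILC1/3P. It fell by 2.35 ± 0.56 on the log2 scale against CLP (adjusted p = 0.0103), with no overlap. That call was lost without ILC1/3P replicate 1 (0.0508), and the one against ILCP (adjusted p = 0.0288) without any of 4 libraries (highest 0.108).

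Hist3h2ba, an H2B gene near Hist3h2a, was the single replication-dependent gene called between ILCP and CLP. It was at 17.003, 21.9 and 11.4 CPM in CLP, at 47.5, 81.5 and 54.9 CPM in ILCP, and at 27.96 and 66.9 CPM in ILC1/3P. All ILCP libraries lay above all CLP libraries, by 1.87 ± 0.44 on the log2 scale (adjusted p = 0.0244). The call was lost without any CLP library, ILCP replicate 2 or ILCP replicate 3 (highest adjusted p = 0.11). The call for ILC1/3P against CLP (1.498 ± 0.47, adjusted p = 0.0392) was lost without any of 6 libraries (highest adjusted p = 0.389).

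H3 and H4 genes were low throughout, and most of their values in ILC1/3P lay above CLP. All 9 tested H3 genes, of 12, had positive log2 fold changes in ILC1/3P against CLP (median 2.26). Genes this low can pass the filter through their higher group alone, and only Hist2h3c2 was called. Hist2h3c2 was at 2.49, 4.05 and 0.741 CPM in CLP, at 3.98, 2.35 and 5.49 CPM in ILCP, and at 23.2 and 58.6 CPM in ILC1/3P (4.07 ± 0.85 against CLP, adjusted p = 0.00492). Without ILC1/3P replicate 2 it missed the threshold (0.0758). Summed H3 genes were at 15.4 to 20.97 CPM in CLP, 12.4 to 21.4 CPM in ILCP, and 63.2 and 145 CPM in ILC1/3P. Of 9 tested H4 genes 2 were called higher than in CLP, Hist1h4d and Hist1h4c, the latter named after its values were seen. Hist1h4d was at 2.38, 3.86 and 5.63 CPM in CLP, at 2.42, 2.76 and 2.67 CPM in ILCP, and at 36.2 and 45.9 CPM in ILC1/3P, 3.37 ± 0.67 above CLP (adjusted p = 0.0036).

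The linker histone genes as a sum did not separate the populations, at 94.0 to 157 CPM in CLP, 128 to 180 CPM in ILCP, and 117 and 180 CPM in ILC1/3P. Hist1h1c made up most of it in CLP and ILCP and a smaller part in ILC1/3P. It was at 132, 135 and 78.1 CPM in CLP, at 109, 134 and 158 CPM in ILCP, and at 50.2 and 88.4 CPM in ILC1/3P. Its ILC1/3P libraries overlapped CLP, and its log2 fold change of -0.73 ± 0.36 did not pass the test (adjusted p = 0.159), though it was called with library size alone (-1.44, 0.0136) and with limma on FPKM (-1.39, 0.00927). Of the 5 tested H1 genes 4 had positive log2 fold changes in ILC1/3P against CLP (median 1.69) and 4 against ILCP (1.49). Among the 5, 1 was called higher than in CLP and 2 higher than in ILCP. These were Hist1h1e in both comparisons (1.91 ± 0.55 against CLP, adjusted p = 0.0268) and Hist1h1b against ILCP (3.90 ± 1.18, adjusted p = 0.0441), both named after their values were seen.

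Hist2h2aa1, an H2A gene that was not tested, had 223 counts in ILCP replicate 2 and none in the other 7 libraries. All 50-base sequences of Hist2h2aa2 also occur in it. Hist1h2bq and Hist1h2br share 97.3% and 88.7% of theirs, and Hist1h2bq had 0.493 CPM in one ILC1/3P library and 65.7 CPM in the other. Exons of 34 members overlap another gene in GENCODE M21, so counts of such members are uncertain. Among those named here these are Hist1h1e, Hist1h2ae, Hist1h2ag, Hist1h2ai, Hist1h2ak, Hist1h2ao, Hist1h2ap, Hist2h2aa1, Hist2h2aa2, Hist2h2ac, Hist2h3b, Hist2h3c1, Hist3h2a, H2afj, H2afx, H2afy, H2afy2, H3f3a and H3f3aos.

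The replication-dependent genes were also grouped by the ends of their GENCODE M21 transcripts, which 2 of them, Hist1h2bh and Hist1h2bm, lack. This grouping was made after the values were seen and has no test. In 18 members every annotated transcript ended within 50 bases of the stem-loop, and their sum was 469 ± 37.4 CPM in CLP and 4198 ± 664 CPM in ILC1/3P, 8.94-fold higher, or 5.69-fold without Hist1h2ao. In ILCP it was 338 ± 125 CPM, 0.721 of CLP, with 5 of 15 tested values positive and libraries that overlapped CLP. The 15 tested among these 18 all had positive log2 fold changes. In 19 members the model either stopped at the coding region, so that a stem-loop could not be looked for, or had no coding region. Those without one include the pseudogenes Hist1h2aj, Hist1h2al and Hist3h2bb-ps and a Hist2h2bb row listed as a lincRNA. The sum of the 19 was 10.3-fold higher in ILC1/3P (173 CPM) than in CLP (16.8 CPM), with 11 of 11 tested values positive, and 1.053 of CLP in ILCP. Genes this low can pass the filter through their higher group alone. The counts of positive values in these groupings are therefore partly set by the filter. In 26 members with a stem-loop an annotated transcript ran past it or lacked it, and the sum was 2.00-fold higher in ILC1/3P, with 18 of 22 values positive, and 1.17 of CLP in ILCP.

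The 6 members whose annotated transcripts go past the coding region without holding a stem-loop were Hist1h1a, Hist1h2bc, Hist1h2bq, Hist1h2br, Hist2h2be and Hist2h3b. Their sum averaged 370 ± 91.2 CPM for CLP, 414 ± 74.1 for ILCP and 269 ± 36.2 for ILC1/3P, the last 0.727 of the CLP level, and 3 of 6 values were positive. In Hist2h3b and Hist1h1a the model goes on for only 37 and 48 bases after the coding region, so a stem-loop may lie beyond it. The search used a fixed letter pattern, and a hairpin that departs from it would be missed. Hist3h2a, Hist1h1c and Hist1h2bg, which were not higher in ILC1/3P, carry the stem-loop but have annotated transcripts that go on for 1643, 840 and 155 bases after it. Hist1h4d and Hist2h3c2, which were higher, also have such transcripts, with 770 and 377 bases. Whether the libraries held the longer or the shorter forms was not tested.

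Adjacent H2A and H2B genes that face away from each other share the DNA between their starts. Of 13 such pairs within 500 bases, 9 had both genes tested. In ILC1/3P against CLP both log2 fold changes were positive in 5 pairs, and in 4 the H2A value was positive and the H2B value negative. The widest gaps were in Hist1h2ap and Hist1h2br, at 3.10 and -2.57, and Hist2h2ac and Hist2h2be, at 2.97 and -2.35. In Hist1h2ae and Hist1h2bg they were 3.34 and -0.46, with Hist1h2bg at 10.8 to 21.3 CPM in CLP, 9.81 to 19.4 CPM in ILCP, and 7.24 and 16.3 CPM in ILC1/3P. In Hist1h2ag and Hist1h2bj, by contrast, both were among the called genes (3.69 and 4.25). Of the pairs with the widest gaps, Hist1h2br (edgeR adjusted p = 0.125) and Hist2h2ac (0.0758) were not called. Hist1h2br shares 88.65% of its 50-base sequences with Hist1h2bq, which was at 2.09 (adjusted p = 0.261) and belongs to a pair counted as positive in both genes. Reads of Hist1h2br and Hist1h2bq cannot be assigned with certainty, so the pair counts are uncertain too.

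**Figure D3:**
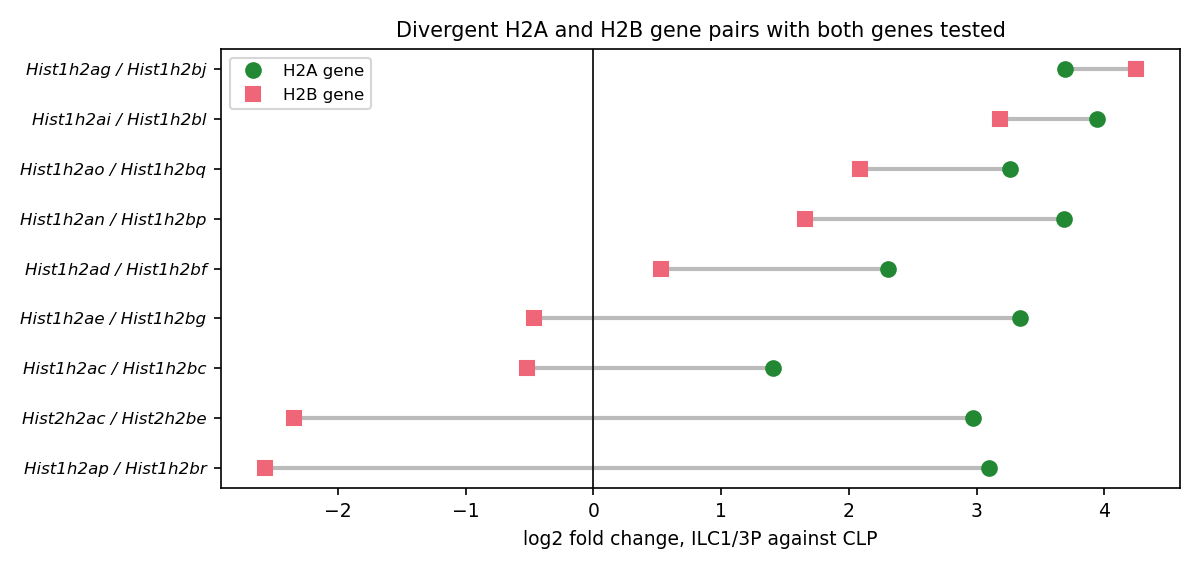
Log2 fold changes in ILC1/3P against CLP for the 9 divergent H2A and H2B pairs with both genes tested. Circles are H2A genes and squares H2B genes joined by a line; all 9 circles lie above 0 and 4 squares lie below it.

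The DNA upstream of these genes is shown because members of a pair draw on the same stretch. The sequences are 150 bases before the RefSeq start (GRCm38.p6), read in the direction of transcription. Capitals mark 3 motifs searched on both strands, the octamer ATTTGCAT (or ATGCAAAT), the CCAAT box (or ATTGG) and TATAAA (or TTTATA). Hist1h2ae and Hist1h2bg share their stretch, so it is printed once, from the side of Hist1h2ae (chr13:23571221-23571370, - strand). The others are Hist1h2bj (chr13:22043048-22043197, +), Hist1h2bm (chr13:21721894-21722043, +), Hist1h4d (chr13:23581418-23581567, +), and 2 variant genes with opposite patterns, H3f3b (chr11:116024505-116024654, -) and H2afy (chr13:56135551-56135700, -).
Hist1h2ae: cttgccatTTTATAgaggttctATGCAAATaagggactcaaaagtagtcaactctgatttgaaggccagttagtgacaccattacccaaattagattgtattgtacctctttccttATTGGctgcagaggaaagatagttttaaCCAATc
Hist1h2bj: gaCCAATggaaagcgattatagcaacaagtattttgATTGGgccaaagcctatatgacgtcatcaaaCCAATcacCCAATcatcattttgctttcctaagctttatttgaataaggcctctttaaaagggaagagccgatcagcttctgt
Hist1h2bm: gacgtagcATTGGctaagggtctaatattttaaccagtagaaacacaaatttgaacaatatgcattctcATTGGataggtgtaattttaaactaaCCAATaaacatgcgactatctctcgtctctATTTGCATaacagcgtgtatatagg
Hist1h4d: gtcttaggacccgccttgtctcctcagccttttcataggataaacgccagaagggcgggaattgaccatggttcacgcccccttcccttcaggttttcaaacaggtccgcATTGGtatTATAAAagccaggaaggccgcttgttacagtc
H3f3b: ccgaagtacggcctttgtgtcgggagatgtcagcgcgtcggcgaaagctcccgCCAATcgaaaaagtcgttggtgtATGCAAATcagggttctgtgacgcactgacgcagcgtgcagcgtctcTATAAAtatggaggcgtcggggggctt
H2afy: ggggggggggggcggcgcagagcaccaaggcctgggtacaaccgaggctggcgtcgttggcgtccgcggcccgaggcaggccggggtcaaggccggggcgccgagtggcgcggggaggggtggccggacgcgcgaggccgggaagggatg

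In windows of 300 bases (250 before to 50 after the start), 72 members matched a RefSeq promoter. The octamer ATTTGCAT was present in 7 of 17 H2A and 7 of 16 H2B promoters and in none of the 6 H1, 10 H3 and 12 H4 promoters, against 1.74% of all 32851 promoters. Among variant genes H3f3b alone held it. CCAAT was present in every H1, H2A, H2B and H3 promoter matched but in 3 of 12 H4 promoters, against 37.4% of all. TATAAA was present in 36 of the 72, against 13.6% of all, and in none of the 8 H2A variant promoters. Hist1h2bm and Hist1h2bg both hold the octamer, and only the first was called in ILC1/3P. A match of letters is a description and not a binding site.

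H2afy, which encodes macroH2A1, a histone known for its place on silent chromatin, was highest in CLP (ENSMUSG00000015937, chr13:56073619-56136361, - strand). It was at 1647, 1206 and 1129 CPM in CLP, at 149, 134 and 102 CPM in ILCP, and at 98.7 and 151 CPM in ILC1/3P. CLP was apart from all other libraries, and ILCP and ILC1/3P overlapped. H2afy fell by 3.37 ± 0.28 on the log2 scale in ILCP (edgeR adjusted p = 1.78e-05) and by 3.41 ± 0.33 in ILC1/3P (adjusted p = 4.39e-05) against CLP. Its paralogue H2afy2 (macroH2A2) was at 2.94 to 11.1 CPM in CLP and 5.40 to 10.6 CPM in ILCP and had no counts in ILC1/3P, at least 27.98-fold lower than in CLP and at least 27.3-fold lower than in ILCP against a floor of 3 counts pooled over the group. Both falls were called (adjusted p = 0.00702 and 0.0103).

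H2afj and H2afv went the opposite way. H2afj encodes a variant of H2A (ENSMUSG00000060032, chr6:136808244-136810074, + strand) and was at 201, 186 and 234 CPM in CLP, at 305, 394 and 307 CPM in ILCP, and at 798 and 917 CPM in ILC1/3P. The 3 populations did not overlap. It was higher in ILC1/3P by 2.05 ± 0.23 on the log2 scale against CLP (adjusted p = 0.000123) and by 1.35 ± 0.23 against ILCP (adjusted p = 0.00297), and the ILCP value against CLP was 0.70 ± 0.21 (adjusted p = 0.0777), which DESeq2 (0.0185) and limma on FPKM (0.0456) called.

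H2afv, which encodes an H2A.Z protein, was at 476, 491 and 553 CPM in CLP, at 626, 858 and 616 CPM in ILCP, and at 1042 and 1403 CPM in ILC1/3P, again without overlap between the 3 populations. Its rise in ILC1/3P was 1.27 ± 0.25 against CLP (adjusted p = 0.00318) and 0.80 ± 0.25 against ILCP (adjusted p = 0.0452). The second call was lost without any of 5 libraries (highest adjusted p = 0.261), and with library size alone H2afv was higher by 0.59 (adjusted p = 0.052) and 0.16 (adjusted p = 0.613). The other H2A.Z gene, H2afz, was at 3.74, 58.5 and 85.2 CPM in CLP, at 4.98, 46.0 and 35.3 CPM in ILCP, and at 323 and 26.7 CPM in ILC1/3P. The libraries of each population were far apart, no comparison was called (lowest adjusted p = 0.16), and 16.9% of its 50-base sequences occur in other genes.

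H2afx, whose protein is phosphorylated at DNA breaks, was at 196, 180 and 181 CPM in CLP, at 149, 97.7 and 192 CPM in ILCP, and at 118 and 93.6 CPM in ILC1/3P. The log2 fold change in ILC1/3P against CLP was -0.81 ± 0.31 and did not pass the test (adjusted p = 0.08), although the groups did not overlap. It was called with library size alone (-1.48, adjusted p = 0.00927) and with limma on FPKM (-1.48, adjusted p = 0.00564).

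The genes for H3.3 differed between CLP and ILCP in opposite directions, although both encode the same protein. H3f3a (ENSMUSG00000060743, chr1:180800832-180813943, - strand) was at 858, 1709 and 1221 CPM in CLP, at 463, 613 and 527 CPM in ILCP, and at 665 and 700 CPM in ILC1/3P. H3f3b (ENSMUSG00000016559, chr11:116021912-116027962, - strand) was at 1928, 1958 and 1800 CPM in CLP, at 4426, 4089 and 2998 CPM in ILCP, and at 2873 and 3001 CPM in ILC1/3P. CLP did not overlap ILCP for either gene. H3f3a was lower in ILCP by -1.24 ± 0.26 (log2, adjusted p = 0.0135) and H3f3b higher by 1.02 ± 0.21 (adjusted p = 0.0125). Each call was lost without any of 3 libraries, for H3f3a CLP replicate 2, ILCP replicate 1 or ILCP replicate 3 (highest adjusted p = 0.0758), and for H3f3b CLP replicate 2, CLP replicate 3 or ILCP replicate 1 (highest 0.0665).

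On the authors' FPKM, H3f3b exceeded H3f3a in every ILCP library (580 to 902 against 108 to 129 FPKM) and in both ILC1/3P libraries (379 and 352 against 101 and 94.5 FPKM). In CLP the genes were closer, at 343 to 416 against 212 to 374 FPKM, with H3f3a at 374 FPKM and H3f3b at 374 FPKM in CLP replicate 2. Neither gene was called in ILC1/3P against CLP by edgeR with TMM and the filter used here (H3f3a -0.89 ± 0.30, adjusted p = 0.0508, and H3f3b 0.63 ± 0.23, adjusted p = 0.072). H3f3a was called with library size alone (-1.55, adjusted p = 0.00186), with no filter (-0.90, 0.0172), without CLP replicate 1 (-1.10, 0.0139), with DESeq2 (-0.83, 0.0255) and with limma on FPKM (-1.50, 0.00166). H3f3b was called with DESeq2 (0.70, adjusted p = 0.00719), and with library size alone it changed sign to -0.05.

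H3f3c and H3f3a-ps2, which GENCODE M21 lists as processed pseudogenes, followed H3f3a. H3f3c was at 361, 676 and 581 CPM in CLP, at 176, 242 and 220 CPM in ILCP, and at 262 and 298 CPM in ILC1/3P. Both were called lower in ILCP than in CLP (-1.34 ± 0.26, adjusted p = 0.00845, and -1.26 ± 0.26, adjusted p = 0.0105). The H3f3c call was lost without CLP replicate 2 (0.0516), and the H3f3a-ps2 call without CLP replicate 3 or ILCP replicate 1 (highest 0.0624). H3f3c was also called lower in ILC1/3P than in CLP (-0.95 ± 0.30, adjusted p = 0.0388), which was lost with RLE scaling (0.05997), in a fit of only these groups (0.0687) and without any of 5 libraries (highest 0.155). H3f3c and H3f3a-ps2 share 73.8% and 82.0% of their 50-base sequences with other genes, mostly H3f3a, so their counts are not independent of it. In all, ILCP had 1 of the 11 variant genes called higher and 4 lower when set against CLP (3.91% and 2.87% of all tested genes). ILC1/3P had 2 higher and 3 lower against CLP (11.8% and 11.7%), and 2 higher and 1 lower against ILCP (8.06% and 8.25%).

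**Figure D4:**
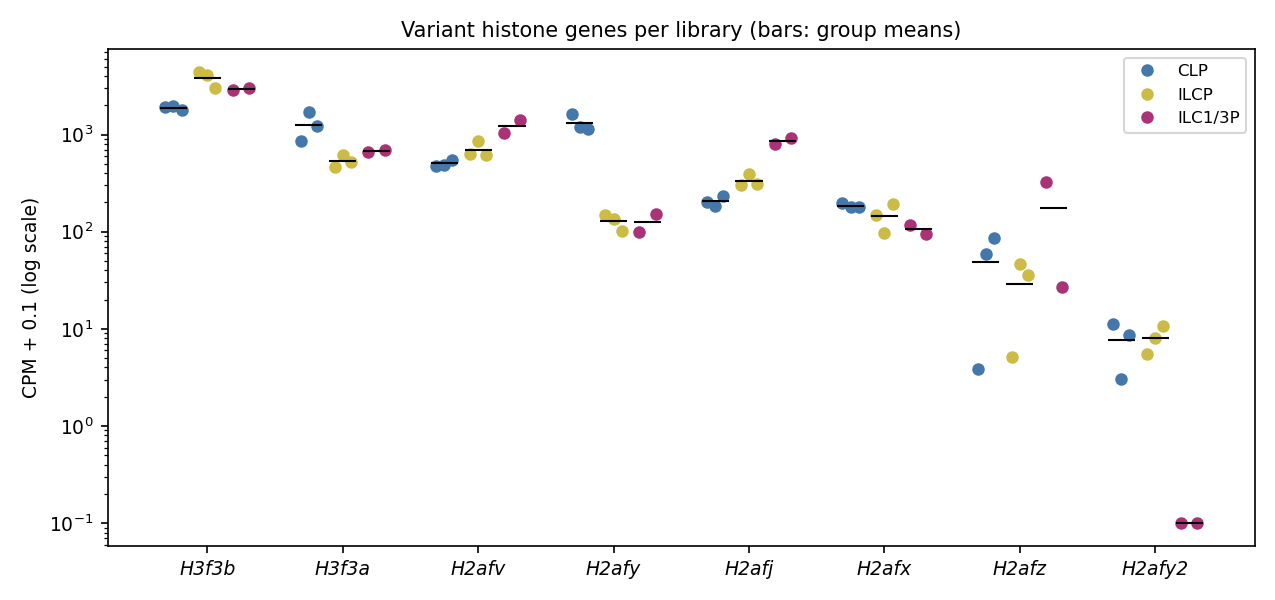
CPM of 8 variant histone genes in each library on a log axis, with 0.1 added so that libraries with no counts can be drawn; bars are group means. H2afy is highest in the 3 CLP libraries, H2afj and H2afv are higher in ILC1/3P, H2afz spreads widely within each population, and H2afy2 has no counts in ILC1/3P.

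Ordered by mean FPKM in CLP, the variant genes ran from H3f3b (377 ± 36.6) and H2afv (295 ± 17.7) through H3f3a (284 ± 82.4), H2afy (191 ± 55.1), H2afx (153 ± 18.7) and H2afj (97.4 ± 11.6) to H2afz (13.8 ± 11.6) and H2afy2 (3.99 ± 2.41), pseudogenes left aside (SD, n = 3 each). Several neighbours in this order overlapped, among them H2afv and H3f3a, and H2afy and H2afx. In ILC1/3P the order was H2afv (443 ± 57.0), H3f3b (366 ± 18.5), H2afj (252 ± 4.13), H3f3a (97.5 ± 4.31), H2afx (54.7 ± 13.3) and H2afz (33.6 ± 41.0), with H2afy at 10.99 ± 2.38 and H2afy2 listed at 0 (SD, n = 2 each). Hist1h2ao exceeded each of these genes in both populations, at 922 ± 25.3 FPKM in CLP and 5522 ± 468 FPKM in ILC1/3P.

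Genes that act around histone supply were taken from lists that were chosen with earlier results of these data known. The counts over these lists are therefore descriptions. Of 44 tested S phase genes, 11 were called higher and 3 lower when ILC1/3P was set against CLP (median 0.46), 16 and 0 when it was set against ILCP (1.10), and 0 and 3 when ILCP was set against CLP (-0.62). Beside them stand the shares of all tested genes called, which also apply to the lists that follow: 11.8% higher and 11.7% lower when ILC1/3P was set against CLP, 8.06% and 8.25% when it was set against ILCP, and 3.91% and 2.87% between ILCP and CLP. The S phase sum was 4163 to 4947 CPM in CLP, 2825 to 3465 CPM in ILCP, and 7955 and 8763 CPM in ILC1/3P, so in ILC1/3P it lay above both other populations, as the replication-dependent sum did. In ILCP the S phase sum was 0.694 of CLP, with no overlap. The replication-dependent sum there was 0.984 of CLP, with H2A at 0.803, H4 at 0.6997 and H2B at 1.21, and the libraries of each of these overlapped CLP. Of 23 genes of G2 and M phase, 8 were higher and 0 lower in each comparison with ILC1/3P. The part of cell cycle stage in the histone values was not tested.

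Of 18 genes for transcription and 3′ processing of histone mRNA, 3 were higher and 4 lower in ILC1/3P than in CLP, 2 and 4 than in ILCP, and 1 (Lsm10, a protein of the U7 particle) was higher in ILCP than in CLP, which leaves the counts near those shares. Slbp, whose protein binds the histone stem-loop, was at 248 to 272 CPM in CLP, 262 to 302 CPM in ILCP, and 763 and 568 CPM in ILC1/3P (1.34 ± 0.23 against CLP, adjusted p = 0.00141). Among the 4 called lower than in CLP were Cdk2 (-2.11 ± 0.43, edgeR adjusted p = 0.0045), Cpsf3 (-1.97 ± 0.41, 0.00498) and Cstf2 (-1.70 ± 0.36, 0.0051). Npat, the coactivator of replication-dependent histone genes, was at 14.5 to 28.3 CPM in CLP and 13.0 and 4.25 CPM in ILC1/3P and was not called (adjusted p = 0.228).

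Of 15 chaperones of histone deposition during replication, ILC1/3P had 4 higher and 1 lower than CLP, and 5 higher and 0 lower than ILCP. Asf1b, which hands new H3 and H4 to chromatin assembly, was at 68.6 to 93.3 CPM in CLP, 104 to 137 CPM in ILCP, and 836 and 537 CPM in ILC1/3P (3.09 ± 0.28 against CLP, adjusted p = 2.54e-05). The 1 called lower than in CLP was Chaf1b (-1.92 ± 0.42, edgeR adjusted p = 0.00662). Of 15 chaperones of variant histone exchange, 2 were higher and 2 lower than in CLP, near the share among all genes, and 3 and 1 than in ILCP. Neither chaperone list had a gene called by edgeR between ILCP and CLP, where 4 and 1 genes had an unadjusted p under 0.05.

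Of 6 histone genes whose symbols fall outside the name rule, H1f0 and Cenpa were tested. H1f0, a linker histone made in cells that have left the cycle or differentiate, was at 34.4 to 82.7 CPM in CLP, 176 to 275 CPM in ILCP, and 259 and 329 CPM in ILC1/3P, and was higher than in CLP in both (2.21 ± 0.36, adjusted p = 0.00251, and 2.52 ± 0.38, adjusted p = 0.000729). Cenpa, the centromeric H3, was higher in ILC1/3P than in CLP by 0.92 ± 0.28 (adjusted p = 0.0317).

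Markers of other cells differed between the populations as well. Summed erythroid markers were at 405 to 558 CPM in CLP, 110 to 151 CPM in ILCP, and 31.6 and 38.3 CPM in ILC1/3P, with 4, 5 and 7 of the 12 genes at 0, among them Slc4a1 in each population and Klf1 in ILCP and ILC1/3P. Summed dendritic cell markers were at 628 to 836 CPM in CLP, 124 to 200 CPM in ILCP, and 113 and 181 CPM in ILC1/3P, with 2, 3 and 3 of 9 at 0 (Clec9a in each). Most of the CLP sum was Flt3, a gene of the sort, and without it the list was at 227 to 266 CPM in CLP, 123 to 199.8 CPM in ILCP, and 113 and 181 CPM in ILC1/3P. Both lists were highest in CLP, as H2afy was, and their part in that difference was not tested. Mast cell and basophil markers were at 0 to 2.82 CPM in CLP, 481 to 632 CPM in ILCP, and 185 and 239 CPM in ILC1/3P, with 7, 6 and 6 of 8 at 0. Fcer1a and Ms4a2 were among those at 0 in each population. Myeloid markers were at 766 to 964 CPM in CLP, 134 to 184 CPM in ILCP, and 720 and 881 CPM in ILC1/3P, with 2, 6 and 4 of 13 rows at 0.

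The myeloid sum was thus 4.86-fold higher in ILC1/3P than in ILCP, beside the higher replication-dependent sum, but 0.948 of that in CLP. Of its 9 tested rows 2 were called higher and 2 lower than in CLP, and 2 higher and 0 lower than in ILCP. Fcgr3 made up most of the ILC1/3P sum, at 642 and 835 CPM, while Mpo was at 0.164 and 0 CPM there. Megakaryocyte markers were at 19.9 to 42.3 CPM in CLP, 45.7 to 62.7 CPM in ILCP, and 14.3 and 36.9 CPM in ILC1/3P (2, 2 and 5 of 7 at 0). Hepatocyte markers were at 72.7 to 91.5 CPM in CLP, 28.2 to 73.95 CPM in ILCP, and 39.3 and 26.001 CPM in ILC1/3P (2, 4 and 4 of 8 at 0). Endothelial and stromal markers were at 61.3 to 92.6 CPM in CLP, 95.3 to 124 CPM in ILCP, and 57.7 and 113 CPM in ILC1/3P (6, 5 and 7 of 10 at 0). Whether such cells were present, and their part in the histone values, was not tested.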

How the data were processed

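RNA of 8 libraries was measured, grouped and numbered by their titles. The cells were lysed, reverse transcribed with the SMARTer Ultra Low kit and PCR-amplified before sequencing on a NovaSeq6000, per the labels' protocols. The deposited table holds counts, whole reads per gene, and FPKM computed by the authors, per the file headers. Reads were placed on mm10, per the submitters' processing notes. Which aligner, counter, annotation and strand setting were used is not given in the sources used here. Without molecular identifiers in the protocols, floors cover only counting error. The number of columns left unmapped was 0.

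The test was that of edgeR 4.0.16 (R 4.3.3): filterByExpr left 13436 genes, libraries were scaled by TMM, and a robust quasi-likelihood model with 1 mean per group was fitted to all 8 libraries. Adjusted p-values are two-sided and Benjamini-Hochberg corrected over all tested genes, and genes under 0.05 were called. SE were derived from the F statistic. Counts of replicates differed by more than sampling noise in every group (chi-square per degree of freedom 24.5 to 54.3), so no library was counted with another. Alternatives were RLE and library-size scaling, other filters, DESeq2 1.42.0, limma 3.58.1 on log2(FPKM + 1), a fit of only the groups compared, a replicate block and leaving out each library. Programs were tested on simulated data. Stem-loops and shared 50-base sequences were searched in GENCODE M21 transcripts, which 86 members have.

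The members and gene lists were chosen with earlier results of these data known. Named were all tested variant genes, up to 12 called replication-dependent genes with the smallest adjusted p, the 8 most abundant ones, and up to 4 genes per list and comparison. Not every gene the rule takes is printed, and those outside it were chosen after their values were seen.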

Additional observations from a re-analysis of the deposited data

How the results depend on the processing

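The replication-dependent sum was higher in ILC1/3P under every setting tried. Against CLP its log2 ratio was 1.46 with library size alone, 1.86 on deposited FPKM and 1.01 without Hist1h2ao (chosen after its share was seen), against ILCP 1.53 with library size and 0.84 without Hist1h2ao. The ratios without Hist1h2ao are with TMM, and none is given for that sum with library size alone. The variant sum was -0.53 for ILCP against CLP on FPKM and 0.28 without H2afy (chosen after its level was seen), -0.60, -0.81 and 0.40 for ILC1/3P against CLP with library size, FPKM and no H2afy, and -0.53 and -0.28 against ILCP with library size and FPKM. The mean class ratio was 0.633 in CLP, 0.829 in ILCP and 4.00 in ILC1/3P on FPKM, 0.136 in CLP and 0.260 in ILC1/3P without Hist1h2ao, and 0.220 and 1.00 without H2afx, H2afj and pseudogenes. On FPKM without H3f3c, H3f3aos and pseudogenes (chosen after seeing the data) it was 1.49, 1.25 and 6.08, and the variant sum was 0.14 for ILCP against CLP, -0.17 for ILC1/3P against CLP and -0.31 against ILCP.

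For ILCP against CLP, counts of replication-dependent calls were 2 higher with no filter and 1 lower with limma, and 2 variant genes were higher with DESeq2 or limma. For ILC1/3P against CLP, 25 replication-dependent genes were higher with limma, 4 lower with library size and 5 lower with limma, and for variant genes 1 was higher and 6 lower with library size and 7 lower with limma. For ILC1/3P against ILCP, 9 replication-dependent genes were higher with library size, 27 with DESeq2 and 31 with limma, and 5 were lower with library size, 4 with no filter, 1 with only the groups compared and 5 with limma. Variant genes there were 1 higher with library size, with only the groups compared or with limma, and 3 lower with library size or limma. The cause was not tested.

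Leaving out 1 library gave 7 to 16 higher and 1 to 2 lower replication-dependent calls against CLP, 6 to 15 and 0 to 3 against ILCP with 1 to 2 variant genes higher, and 0 to 1 higher for ILCP against CLP, with 0 to 1 variant genes higher and 2 to 4 lower. Same-numbered libraries shared only a number (correlations of deviations 0.121, 0.0701 and -0.00492 between CLP and ILCP). With a replicate block 1 replication-dependent gene was lower in ILC1/3P than in ILCP instead of 2, and the other called counts stayed within 1.5 times. Of 78 comparisons of named histone genes, 5 lost and 1 gained a call with the block (H3f3a in ILC1/3P against CLP, adjusted p = 0.0475), 6 lost and 9 gained one with library size alone, and 2 lost and 12 gained one with limma. With 2 ILC1/3P libraries, genes at a few CPM had large errors, and a p above the threshold does not show that they did not differ.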
